A study of Mus musculus with 12 samples.

Results

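The genes of the major histocompatibility complex (MHC) and of antigen presentation were followed across mouse retinas exposed to excitotoxic injury. They were taken from the gene table by name: every gene whose name begins with H2-, the prefix of the mouse MHC, plus *B2m*, *Cd74*, *Tap1*, *Tap2*, *Tapbp*, *Psmb8*, *Psmb9*, *Psmb10*, *Ciita* and *Nlrc5*. A total of 55 names matched, 3 names with -ps were left out, and 52 of the 55487 genes in the table remained. The libraries came from retinas of C57BL/6J wild type (WT) mice, of shPax6 mice and of JNK3 KO (Jnk3-/-) mice after an intravitreal injection of 1 μL PBS or of 1 μL of 40 mM NMDA (40 nmol), an agonist that kills retinal neurons by over-stimulating glutamate receptors. Each of the 6 groups was sequenced as 2 libraries of poly(A) RNA, and each library was made from RNA of pooled retinas. In the shPax6 mice an AAV2.7m8 vector carried an shRNA against *Pax6* under a U6 promoter, and GFP as a reporter, so the knockdown reached only infected cells. No library was labelled as carrying the shScramble vector, so infection and knockdown cannot be told apart. The labels of the WT and JNK3 KO libraries name no vector. The WT mice that received the shPax6 vector were 2 months old, and the age of the JNK3 KO mice and the time from injection to collection are not given in the sources used here.

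MHC class I molecules, present on nearly all nucleated cells, consist of a heavy chain and the light chain β2-microglobulin (*B2m*), and show peptides of the cell's own proteins to CD8+ T cells. The peptides are cut by the proteasome, whose catalytic subunits are exchanged for *Psmb8*, *Psmb9* and *Psmb10* in the immunoproteasome, are pumped into the endoplasmic reticulum by TAP1 and TAP2, and are loaded with the help of tapasin (*Tapbp*). Class II molecules are built from an α and a β chain, are escorted by the invariant chain CD74, receive their peptides with the help of H2-DM, and are made mainly by macrophages, dendritic cells, B cells and, after activation, microglia. NLRC5 and CIITA are the transactivators of class I and class II genes. The healthy retina has little of either class and lies behind a blood barrier.

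The values were FPKM, fragment numbers scaled to transcript length and library size, so levels of different genes can be compared per length. FPKM hold no read counts, and the depth behind a single value is therefore unknown. A single limma model of all 12 libraries gave the log2 fold changes, on log2(FPKM + 0.1), a scale that understates the change of low genes. A gene was called where its p, adjusted by Benjamini-Hochberg over 16471 genes, was under 0.05. Those genes had a mean of over 1 FPKM in 1 or more of the groups. The summed FPKM of a library lay between 541210 and 576922 in 10 libraries and was 805627 and 820180 in the WT NMDA libraries. *Pax6* had 173.48 and 177.3 FPKM in WT PBS, 55.42 and 53.81 in WT NMDA, 94.56 and 92.84 in shPax6 PBS, 67.52 and 58.73 in shPax6 NMDA, 186.72 and 191.41 in JNK3 KO PBS and 128.89 and 137.55 in JNK3 KO NMDA. *Mapk10*, which encodes JNK3, stood at 42.79 and 50.72 FPKM in WT PBS, 8.98 and 6 in WT NMDA, 20.86 and 21.33 in shPax6 PBS, 16.16 and 8.85 in shPax6 NMDA, 9.47 and 8.75 in JNK3 KO PBS and 6.65 and 13.77 in JNK3 KO NMDA. The WT NMDA libraries were thus as low in *Mapk10* as the JNK3 KO libraries, and which exons the knockout lacks is not given in the sources used here. Rod markers summed to between 19350.77 and 34198.01 FPKM, so that the libraries carried the markers of the retina they are labelled as. The study calls the libraries of a group biological replicates, but the labels do not say whether each pool came from separate animals, so the p-values measure the spread between these libraries, which may be technical.

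The filter kept 29 of the 52 genes. These were both class Ia heavy chains, 11 of 26 class Ib genes, all 7 genes of peptide supply and loading, 1 of 2 regulators, 6 of 11 class II genes and 2 of 4 other H2- names. Of the 23 that were not kept, 12 were listed at 0 FPKM in every library, among them *H2-Ea*, which C57BL/6 mice do not express, and the *H2-M10* genes. The highest single value among the other 11 was 1.19 FPKM for *H2-DMb2*, followed by 1.09 for *H2-M5* and 0.97 for *Ciita*. *H2-Q2* and *H2-T10* were kept only through the shPax6 NMDA group, so their rise there was part of how they were kept. Of the 52 genes 47 lie on chromosome 17, between 33915899 and 37483552 of GRCm38, and *B2m* lies on chromosome 2, *Psmb10* and *Nlrc5* on chromosome 8 and *Ciita* on chromosome 16. The cluster holds near-identical copies, and reads that fit several of them were divided by the authors' software. Of the read-length windows along the most abundant coding transcript, 62.7% were shared with another gene for *H2-Ke6*, 14.4% for *H2-T22*, 13.5% for *H2-DMb1*, 11.4% for *H2-T10* and 10.5% for *H2-Q6*, and 0% for *B2m*, *Cd74*, *H2-Aa* and *H2-Ab1*. *H2-Q5* has no transcript annotated as protein-coding, and its most abundant transcript, of 172 bases, shared all 72 windows.

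The bases before the start sites are shown for 5 of these genes, because the results that follow compare class I genes, the light chain and class II genes. RefSeq windows on GRCm38.p6 were searched for 37 of the 52 genes and 21 of the 29 kept, and *Cd74* was left out of the search. *H2-Ab1* had no window. In the sequences shown, bases that lie in an annotated exon were left out, which shortened the windows of *B2m* to 199 and of *H2-Eb1* to 146 bases. Capitals mark 4 runs of letters searched on both strands: CCAAT, the Y box bound by NF-Y, TGACG, the core of the CREB site, TTTCNNTTC, letters of the interferon-stimulated element, and GGGATTCCC, an NF-κB site. On the other strand CCAAT reads ATTGG and TGACG reads CGTCA.
H2-K1 (class Ia, chr17:34000348-34000547, minus strand): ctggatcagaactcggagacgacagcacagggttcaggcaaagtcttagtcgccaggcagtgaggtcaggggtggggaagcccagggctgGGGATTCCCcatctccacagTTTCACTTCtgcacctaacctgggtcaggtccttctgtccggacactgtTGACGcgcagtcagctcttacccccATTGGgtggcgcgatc
H2-Q7 (class Ib, chr17:35438955-35439154, plus strand): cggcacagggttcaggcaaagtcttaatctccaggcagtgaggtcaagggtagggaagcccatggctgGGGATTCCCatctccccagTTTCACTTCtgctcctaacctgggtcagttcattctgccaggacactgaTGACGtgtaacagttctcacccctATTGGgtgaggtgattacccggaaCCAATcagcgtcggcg
B2m (light chain, chr2:122147487-122147685, plus strand): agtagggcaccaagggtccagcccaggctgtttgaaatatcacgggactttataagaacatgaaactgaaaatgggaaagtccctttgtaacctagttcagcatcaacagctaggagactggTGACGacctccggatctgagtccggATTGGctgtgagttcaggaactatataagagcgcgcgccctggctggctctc
H2-Aa (class II, chr17:34287824-34288023, minus strand): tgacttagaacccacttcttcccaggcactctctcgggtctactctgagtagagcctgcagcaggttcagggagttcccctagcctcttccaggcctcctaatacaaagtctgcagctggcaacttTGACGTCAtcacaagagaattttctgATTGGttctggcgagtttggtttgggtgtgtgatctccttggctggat
H2-Eb1 (class II, chr17:34305721-34305866, plus strand): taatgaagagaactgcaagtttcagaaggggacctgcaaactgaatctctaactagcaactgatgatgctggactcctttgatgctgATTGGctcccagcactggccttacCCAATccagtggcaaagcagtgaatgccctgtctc

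All 5 windows hold an ATTGG. Counted from -1 at the base before the start, its first letter stands at -16 in *H2-K1*, -40 in *H2-Q7*, -53 in *B2m*, -48 in *H2-Aa* and -59 in *H2-Eb1*. A TGACG lies further from the start in *H2-K1* (-41), *H2-Q7* (-64), *B2m* (-78) and *H2-Aa* (-74, where it overlaps CGTCA at -71). GGGATTCCC and the letters TTTCACTTC follow each other in *H2-K1* (-110 and -90) and *H2-Q7* (-132 and -113). The 200 bases before the start held CCAAT on either strand in 16 of the 21 kept genes and in 29.3% of all 32851 windows. For the kept genes the counts used the first listed window of each gene, with exonic bases left in. A further window of *H2-DMa*, with CCAAT at -198, was not counted. The windows of *Tapbp*, *H2-Ke6*, *Psmb9*, *Tap1*, *Psmb8*, *H2-D1* and *H2-Q4* lie wholly in annotated exons. TGACG was found in 10 of 21 and 15.7%, TTTCNNTTC in 7 of 21 and 5.0%, and the NF-κB letters in 4 of 21 and 0.213%. The class I genes arose by duplication, so their windows are not independent, and a match is a run of letters, not a site shown to be bound.

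After NMDA most of the kept genes rose in shPax6, 16 were called either way in WT, and the calls in JNK3 KO were all lower on the deposited scale, as the map of the 29 genes by library shows. In shPax6 retinas 24 of the 29 kept genes rose by the limma test, with 0 lower calls (also 0 at an unadjusted p under 0.05), against 19.1% of all genes called higher and 11% called lower. Without *H2-Q2* and *H2-T10* the count was 23 of 27. In WT retinas 14 rose and 2 fell, against 26% and 33.8% of all genes. The WT counts were 10 higher and 6 lower when every library was rescaled to the same sum (TPM), and 12 and 6 after a correction for gene length. In JNK3 KO retinas 10 fell, with 0 higher calls by limma (1 at an unadjusted p under 0.05), against 6.1% of all genes called lower and 4.33% called higher. With the length correction 8 fell and 1 rose in JNK3 KO. The median log2 fold change of the 29 was 1.42 in shPax6, 0.31 in WT and -0.44 in JNK3 KO retinas, beside medians over all genes of 0.10, -0.09 and -0.01. Without *H2-Q2* and *H2-T10* the shPax6 median was 1.33. The 5 genes without a call in shPax6 were *H2-Q5*, *H2-Q10*, *H2-T10*, *H2-T24* and *H2-Ke6*. Both shPax6 NMDA libraries lay above both shPax6 PBS libraries for 28 of the 29 genes, against 35% of all genes, and below them for 0, against 22%. *H2-Q2* and *H2-T10* were among these 28. In WT both NMDA libraries lay above for 16 genes and below for 3, against 36.9% and 44.3%. In JNK3 KO they lay above for 3 and below for 21, against 28.7% and 32.8%. The calls in JNK3 KO depended on each library: leaving out PBS replicate 1, PBS replicate 2, NMDA replicate 1 or NMDA replicate 2 left 5, 4, 6 and 5 calls. With the spread taken from the compared groups alone the calls were 13 in shPax6 and 3 in JNK3 KO. The study's call rule, an unadjusted p under 0.05 with a log2 fold change beyond 1 either way, gave 2 calls in JNK3 KO, against 4.67% of all genes. That rule was applied here to limma p-values. The study's own rule for PBS against NMDA also limits the variance-mean ratio and rests on edgeR.

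**Figure D1:**
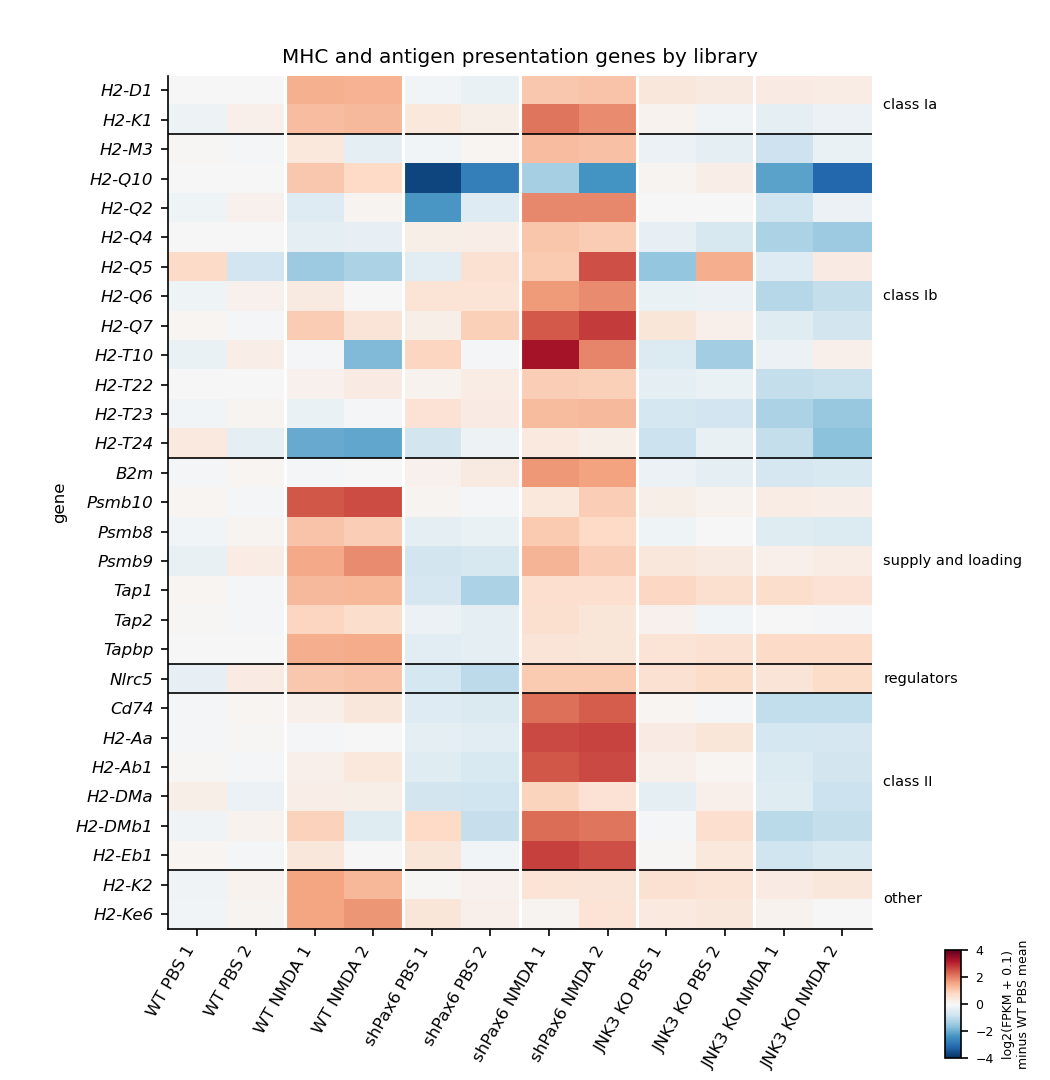
The 29 kept genes (rows, ordered by role) in the 12 libraries (columns), coloured by log2(FPKM + 0.1) minus the mean of the 2 WT PBS libraries, from -4 (blue) to 4 (red). The class II rows are red in the shPax6 NMDA libraries, where *H2-Aa* reached 95.98 and 100.57 FPKM, and pale in the WT NMDA libraries, where it stood at 14.65 and 15.71 FPKM.

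The class II genes were the role group with the highest median response in shPax6. All 6 kept class II genes rose in shPax6 retinas after NMDA, against 19.1% of all genes, by a median log2 fold change of 2.67. In WT retinas 2 of 6 rose (33.3%, near the 26% of all genes called higher), with a median of 0.23. In JNK3 KO retinas 4 of 6 fell (66.7%, against 6.1% of all genes), with a median of -0.97. *H2-Aa*, the α chain of I-A, had 14.85 and 15.98 FPKM in WT PBS, and 14.65 and 15.71 in WT NMDA. It rose from 11.94 and 11.51 FPKM in shPax6 PBS to 95.98 and 100.57 in shPax6 NMDA, and fell from 19.43 and 21.65 in JNK3 KO PBS to 9.33 and 9.55 in JNK3 KO NMDA. The WT groups overlapped, whereas the shPax6 NMDA libraries stood above and the JNK3 KO NMDA libraries below all others. The log2 fold change was -0.02 ± 0.09 (SE, n = 2 libraries per group, limma adjusted p = 0.858) in WT, 3.06 ± 0.09 (adjusted p = 1.63e-07), an 8.32-fold rise, in shPax6 and -1.11 ± 0.09 (adjusted p = 0.000144) in JNK3 KO.

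Its partner *H2-Ab1*, the β chain of I-A, was listed at 14.45 and 13.76 FPKM in WT PBS, 16.25 and 18.9 in WT NMDA, 10.16 and 9.12 in shPax6 PBS, 78.91 and 88.26 in shPax6 NMDA, 16.39 and 14.8 in JNK3 KO PBS and 9.63 and 8.44 in JNK3 KO NMDA. It rose 8.59-fold in shPax6. *Cd74*, the invariant chain, stood at 27.95 and 31.26 FPKM in WT PBS, 33.75 and 40.57 in WT NMDA, 20.53 and 19.72 in shPax6 PBS and 136.26 and 160.47 in shPax6 NMDA. *Cd74* in JNK3 KO had 31.17 and 28.14 FPKM under PBS and 14.76 and 14.78 after NMDA. It rose 7.32-fold in shPax6 (limma adjusted p = 6.67e-07) and fell by 1.00 on the log2 scale in JNK3 KO (adjusted p = 0.00105). The 2 class II calls in WT were *Cd74* (0.32 ± 0.11, limma adjusted p = 0.0353) and *H2-Ab1* (0.31 ± 0.12, adjusted p = 0.047). They turned negative, at -0.25 and -0.26, on the TPM scale, which lowered the WT median over all genes from -0.09 to -0.66, and were -0.42 and -0.05 with the length correction.

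*H2-Eb1*, the β chain of I-E, was listed at 12.64 and 11.36 FPKM in WT PBS, 16.49 and 11.77 in WT NMDA, 16.86 and 11 in shPax6 PBS and 79.85 and 72.6 in shPax6 NMDA. *H2-Eb1* in JNK3 KO had 12.45 and 16.18 FPKM under PBS and 6.82 and 7.82 after NMDA. Its rise in shPax6 was 5.56-fold and its fall in JNK3 KO was -0.95 ± 0.23 (limma adjusted p = 0.0306). The peptide editor *H2-DMa* stood at 7.6 and 5.5 FPKM in WT PBS, 7.71 and 7.58 in WT NMDA, 3.81 and 3.7 in shPax6 PBS, 12.1 and 9.73 in shPax6 NMDA, 5.07 and 7.39 in JNK3 KO PBS and 4.58 and 3.5 in JNK3 KO NMDA. Its partner *H2-DMb1* was listed at 2.16 and 2.67 FPKM in WT PBS, 4.67 and 1.69 in WT NMDA, 4.27 and 1.21 in shPax6 PBS, 11.77 and 10.96 in shPax6 NMDA, 2.27 and 3.85 in JNK3 KO PBS and 1.09 and 1.18 in JNK3 KO NMDA. Both rose in shPax6, by 1.51 ± 0.23 and 2.26 ± 0.59 on the log2 scale, and neither passed the test in WT or JNK3 KO. The transactivator *Ciita* stayed under the filter, at 0.42 and 0.36 FPKM in WT PBS, 0.1 and 0.01 in WT NMDA, 0.5 and 0.08 in shPax6 PBS and 0.85 and 0.97 in shPax6 NMDA. *Ciita* in JNK3 KO had 0.33 and 0.43 FPKM under PBS and 0.09 and 0.19 after NMDA. Its highest libraries were those of the shPax6 NMDA group, as for the class II chains, but it was not tested. In RNA of whole retina a higher level can come from more cells of a type or from more RNA per cell, and these cannot be told apart.

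**Figure D2:**
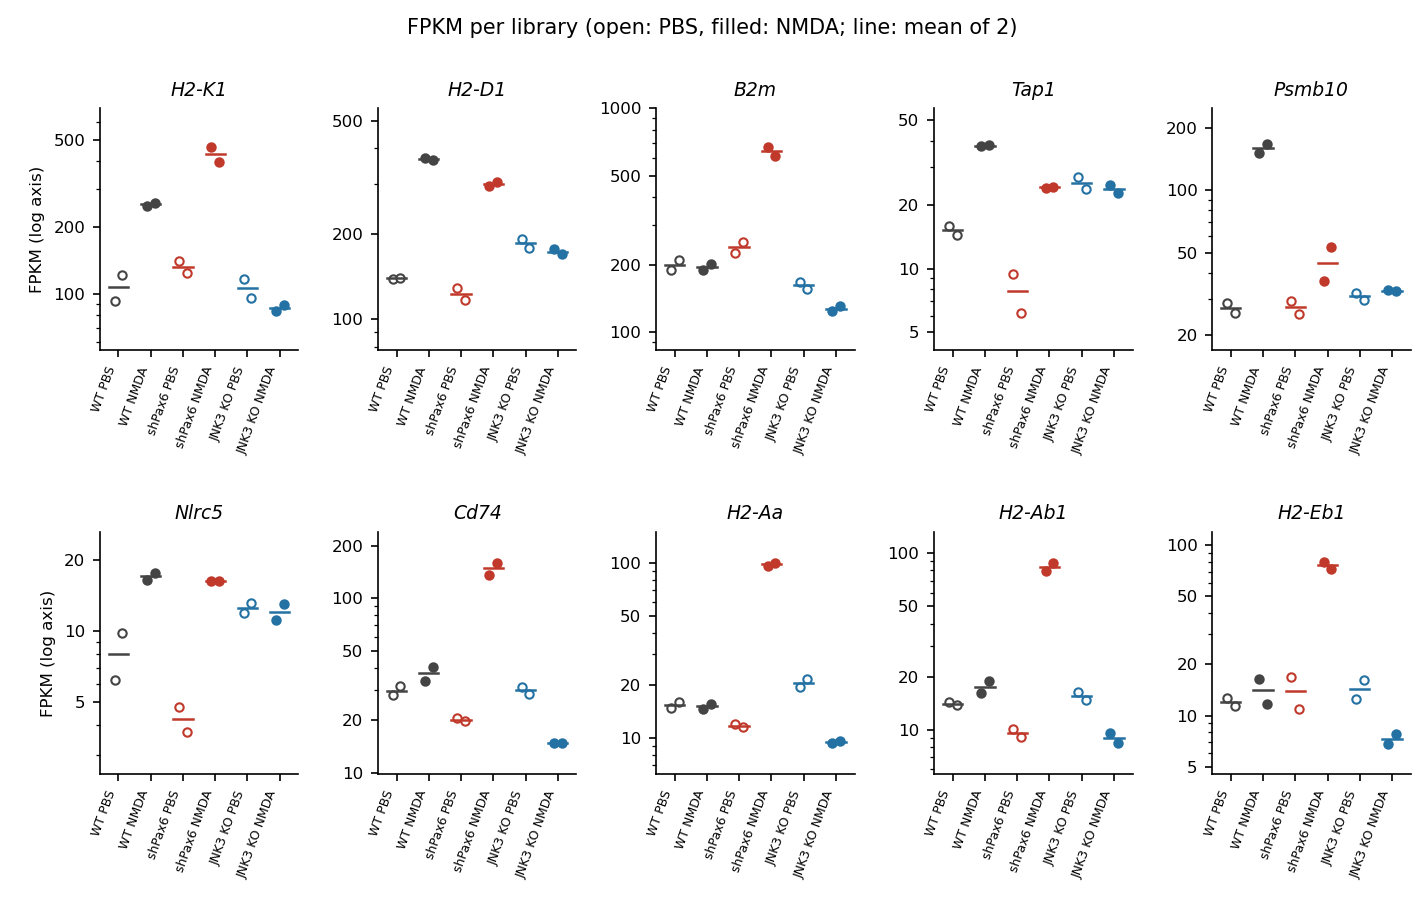
FPKM of 10 genes in each library on logarithmic axes, with PBS libraries as open and NMDA libraries as filled points and the mean of each group of 2 as a line (grey WT, red shPax6, blue JNK3 KO). *H2-K1*, *H2-D1*, *Tap1* and *Nlrc5* are higher after NMDA in WT and shPax6, *Psmb10* reaches 151.76 and 166.17 FPKM only in WT NMDA, and *B2m* and the class II genes stand out only in shPax6 NMDA.

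The class Ia heavy chains rose in WT and in shPax6 retinas and did not pass the test in JNK3 KO. *H2-D1* stood at 138.64 and 139.57 FPKM in WT PBS, 369.2 and 362.33 in WT NMDA, 129.26 and 116.71 in shPax6 PBS and 294.72 and 304.1 in shPax6 NMDA. *H2-D1* in JNK3 KO had 191.41 and 178.67 FPKM under PBS and 176.4 and 169.09 after NMDA. The rise was 2.63-fold in WT (log2 1.39 ± 0.06, limma adjusted p = 1.44e-07) and 2.44-fold in shPax6 (1.28 ± 0.06, adjusted p = 1.33e-06). *H2-K1* stood at 92.65 and 121.12 FPKM in WT PBS, 249.89 and 258.01 in WT NMDA, 140.65 and 123.66 in shPax6 PBS and 464.16 and 396.51 in shPax6 NMDA. *H2-K1* in JNK3 KO had 117.09 and 96 FPKM under PBS and 83.05 and 89.23 after NMDA. The rise was 2.40-fold in WT (1.26 ± 0.14) and 3.25-fold in shPax6 (1.70 ± 0.14), with NMDA libraries above both PBS libraries in each. In JNK3 KO the log2 fold changes were -0.10 for *H2-D1* and -0.30 for *H2-K1* (limma adjusted p = 0.357 and 0.238).

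The light chain did not follow the heavy chains in WT. *B2m* had 189.09 and 209.91 FPKM in WT PBS, and 189.74 and 201.04 in WT NMDA, so that these groups overlapped. It rose from 225.3 and 253.24 FPKM in shPax6 PBS to 668.32 and 614.06 in shPax6 NMDA, and fell from 167.64 and 155.17 in JNK3 KO PBS to 124.34 and 130 in JNK3 KO NMDA. The log2 fold change was -0.03 ± 0.08 in WT (95% interval -0.21 to 0.15, limma adjusted p = 0.786), 1.42 ± 0.08 in shPax6 (adjusted p = 3.65e-06) and -0.34 ± 0.08 in JNK3 KO (adjusted p = 0.0264), where the call was lost after quantile normalization and with the length correction. The WT value of *B2m*, the shortest of the 29 genes at 860 spliced bases, was -0.60 on the TPM scale and -0.92 with the length correction, and was called lower on both. The WT median over all genes was -0.66 on the TPM scale and -0.01 with the length correction, so on the TPM scale *B2m* moved like the median gene.

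The genes of peptide supply and loading rose in both WT and shPax6 retinas. In WT 6 of 7 rose, all but *B2m* (85.7%, against 26% of all genes), and in shPax6 7 of 7 rose, against 19.1% of all genes. In JNK3 KO *B2m* alone passed the test, as lower (14.3%, against 6.1% of all genes). *Psmb10*, the MECL-1 subunit of the immunoproteasome, stood at 28.55 and 25.43 FPKM in WT PBS, 151.76 and 166.17 in WT NMDA, 29.09 and 25.34 in shPax6 PBS and 36.28 and 53.02 in shPax6 NMDA. *Psmb10* in JNK3 KO had 32.05 and 29.65 FPKM under PBS and 33.06 and 32.52 after NMDA. Its WT rise of 5.88-fold (log2 2.55 ± 0.16, limma adjusted p = 1.22e-06) was the largest among the 29 genes in WT, and it rose by 0.69 ± 0.16 in shPax6. *Psmb9*, or LMP2, was listed at 5.91 and 8.98 FPKM in WT PBS, 21.2 and 27.54 in WT NMDA, 4.38 and 4.68 in shPax6 PBS, 18.72 and 14.42 in shPax6 NMDA, 9.95 and 9.4 in JNK3 KO PBS and 8.38 and 9.06 in JNK3 KO NMDA. *Psmb8*, or LMP7, was listed at 20.04 and 22.96 FPKM in WT PBS, 47.37 and 42.17 in WT NMDA, 16.64 and 17.87 in shPax6 PBS, 44.67 and 37.05 in shPax6 NMDA, 18.96 and 21.89 in JNK3 KO PBS and 15.43 and 14.59 in JNK3 KO NMDA. Both subunits rose in WT and in shPax6, *Psmb9* by 1.72 ± 0.21 in WT and 1.84 ± 0.21 in shPax6, and *Psmb8* by 1.06 ± 0.12 and 1.23 ± 0.12 on the log2 scale.

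*Tap1*, whose 5′ end overlaps that of *Psmb9* on the opposite strand, stood at 15.96 and 14.43 FPKM in WT PBS, 37.74 and 38.12 in WT NMDA, 9.45 and 6.19 in shPax6 PBS and 24.04 and 24.23 in shPax6 NMDA. *Tap1* in JNK3 KO had 27.1 and 23.79 FPKM under PBS and 24.76 and 22.71 after NMDA. Its partner in the transporter, *Tap2*, stood at 9.34 and 8.67 FPKM in WT PBS, 16.34 and 14.63 in WT NMDA, 7.71 and 6.84 in shPax6 PBS, 14.23 and 12.55 in shPax6 NMDA, 10.09 and 8.33 in JNK3 KO PBS and 9.01 and 8.79 in JNK3 KO NMDA. *Tap1* rose by 1.32 ± 0.17 in WT and 1.64 ± 0.17 in shPax6, and *Tap2* by 0.77 ± 0.13 and 0.87 ± 0.13. The WT value of *Tap2* was 0.21 on the TPM scale and 0.10 from its coding transcripts, with no call in either. Tapasin (*Tapbp*) was listed at 59.41 and 60.55 FPKM in WT PBS, 165.41 and 167.86 in WT NMDA, 43.47 and 45.7 in shPax6 PBS and 85.19 and 84.31 in shPax6 NMDA. *Tapbp* in JNK3 KO had 87.36 and 92.2 FPKM under PBS and 101.74 and 101.75 after NMDA. It rose 2.78-fold in WT (limma adjusted p = 5.75e-08) and 1.90-fold in shPax6 (adjusted p = 3.60e-06), and its log2 fold change in JNK3 KO was 0.18 ± 0.05 (adjusted p = 0.0573). *Nlrc5*, the class I transactivator, was listed at 6.24 and 9.85 FPKM in WT PBS, 16.54 and 17.57 in WT NMDA, 4.79 and 3.73 in shPax6 PBS and 16.32 and 16.38 in shPax6 NMDA. *Nlrc5* in JNK3 KO had 11.93 and 13.13 FPKM under PBS and 11.19 and 13.04 after NMDA. It rose by 1.11 ± 0.21 in WT (limma adjusted p = 0.00127) and by 1.93 ± 0.21 in shPax6 (adjusted p = 0.000164), with NMDA levels near 16 to 18 FPKM in both, and was at -0.05 ± 0.21 in JNK3 KO.

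**Figure D3:**
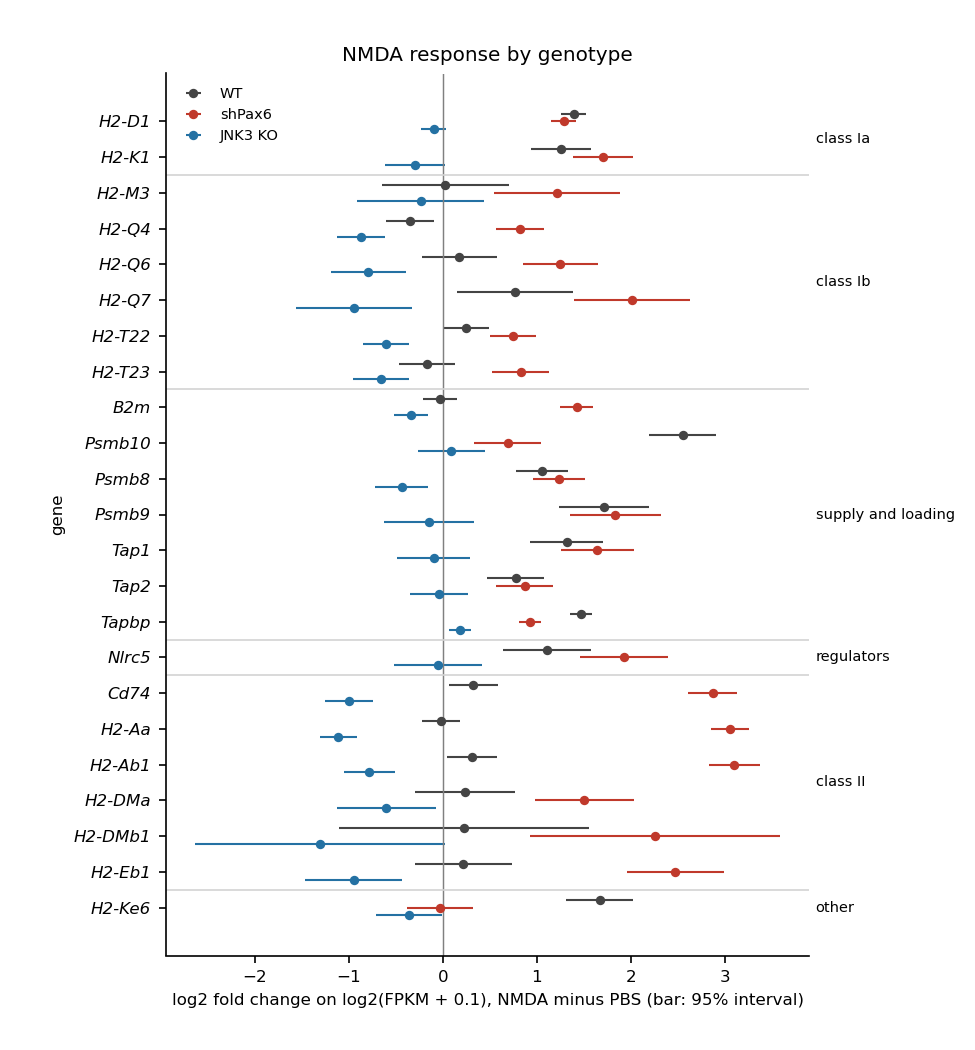
Log2 fold change from PBS to NMDA for 23 genes in WT (grey), shPax6 (red) and JNK3 KO (blue), with 95% intervals from the limma fit as bars. The class Ia genes, *Psmb8*, *Psmb9*, *Tap1* and *Tap2* have WT and shPax6 intervals that overlap to the right of 0, whereas *Cd74*, *H2-Aa* and *H2-Ab1* lie near 3 in shPax6 alone.

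The class Ib genes encode less variable class I molecules. Of the 11 kept, 7 rose in shPax6 (63.6%, against 19.1% of all genes) and 5 fell in JNK3 KO (45.5%, against 6.1%). In WT 1 rose and 2 fell, 9.09% and 18.2%, below the 26% and 33.8% of all genes. Without *H2-Q2* and *H2-T10* the count in shPax6 was 6 of 9. *H2-T23*, which encodes Qa-1, a ligand of the NKG2A receptor, stood at 18.77 and 22.23 FPKM in WT PBS, 16.84 and 19.6 in WT NMDA, 30.59 and 25.79 in shPax6 PBS and 49.64 and 50.15 in shPax6 NMDA. *H2-T23* in JNK3 KO had 12.57 and 11.99 FPKM under PBS and 8.4 and 7.14 after NMDA. *H2-Q4* was listed at 19.85 and 20.17 FPKM in WT PBS, 15.35 and 16.04 in WT NMDA, 23.72 and 23.85 in shPax6 PBS, 43.37 and 40.92 in shPax6 NMDA, 15.81 and 12.78 in JNK3 KO PBS and 8.21 and 7.25 in JNK3 KO NMDA. In both genes the JNK3 KO NMDA libraries were the lowest and the shPax6 NMDA libraries the highest of the 12. The log2 fold changes of *H2-T23* were -0.17 ± 0.13 in WT (no call, but called lower at -0.74 on the TPM scale), 0.83 ± 0.13 in shPax6 and -0.66 ± 0.13 in JNK3 KO, and those of *H2-Q4* were -0.35 ± 0.11 (limma adjusted p = 0.024), 0.82 ± 0.11 and -0.87 ± 0.11. On the TPM scale the WT median over all genes was -0.66, near the value of *H2-T23*.

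*H2-Q7* and *H2-Q6*, which encode Qa-2 molecules, rose together in shPax6. *H2-Q7* was listed at 4.7 and 4.16 FPKM in WT PBS, 9.14 and 6.3 in WT NMDA, 5.22 and 8.74 in shPax6 PBS and 24.55 and 31.04 in shPax6 NMDA. *H2-Q7* in JNK3 KO had 6.27 and 5.08 FPKM under PBS and 3.14 and 2.63 after NMDA. *H2-Q6* was listed at 4.64 and 5.81 FPKM in WT PBS, 6.73 and 5.14 in WT NMDA, 7.67 and 7.62 in shPax6 PBS, 17.17 and 19.46 in shPax6 NMDA, 4.33 and 4.37 in JNK3 KO PBS and 2.32 and 2.63 in JNK3 KO NMDA. The rise in shPax6 was 4.04-fold and 2.37-fold. *H2-Q7* also rose in WT (0.77 ± 0.27, limma adjusted p = 0.0356), the only class Ib gene to do so on the deposited scale, but was at 0.20 with no call on the TPM scale.

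*H2-T22*, a ligand of some γδ T cells, stood at 11.07 and 10.8 FPKM in WT PBS, 12.2 and 13.76 in WT NMDA, 12.09 and 13.44 in shPax6 PBS and 21.63 and 21.17 in shPax6 NMDA. *H2-T22* in JNK3 KO had 8.49 and 9.04 FPKM under PBS and 5.54 and 5.9 after NMDA. *H2-M3*, which binds peptides with a formylated first residue, stood at 2.41 and 2.22 FPKM in WT PBS, 3.11 and 1.78 in WT NMDA, 2.16 and 2.43 in shPax6 PBS, 5.52 and 5.36 in shPax6 NMDA, 1.96 and 1.75 in JNK3 KO PBS and 1.26 and 1.92 in JNK3 KO NMDA. Both rose in shPax6, by 0.74 ± 0.11 and 1.21 ± 0.30, *H2-T22* fell in JNK3 KO (-0.61 ± 0.11, limma adjusted p = 0.00895), and *H2-M3* passed the test in no other genotype. *H2-Q2*, which passed the filter through the shPax6 NMDA group, was at 0 and 0.25 FPKM in shPax6 PBS and 1.79 and 1.81 in shPax6 NMDA. *H2-Q10*, a class Ib gene best known from liver, was at 2.4 and 2.65 FPKM in JNK3 KO PBS and 0.42 and 0.16 in JNK3 KO NMDA, a fall of -2.83 ± 0.50 (limma adjusted p = 0.00882), and *H2-T24* fell in WT from 2.19 and 1.21 FPKM to 0.33 and 0.31 (-2.04 ± 0.42, adjusted p = 0.00231). *H2-Q5* varied between the libraries of a group, from 0.91 to 8 FPKM in JNK3 KO PBS, and is the gene whose main transcript shares all its windows.

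The other 2 kept names rose in WT. *H2-Ke6*, also named Hsd17b8 and encoding a steroid dehydrogenase without a part in antigen presentation, stood at 46.38 and 54.11 FPKM in WT PBS, 148.44 and 171.14 in WT NMDA, 70.41 and 58.23 in shPax6 PBS and 53.52 and 73.21 in shPax6 NMDA. *H2-Ke6* in JNK3 KO had 65.79 and 67.88 FPKM under PBS and 55.17 and 49.14 after NMDA. Its WT rise of 3.18-fold was larger than those of *H2-K1* and *H2-D1*, although it shares only the chromosomal neighbourhood with them. *H2-K2*, a transcribed pseudogene, rose by 1.45 ± 0.12 in WT and 0.44 ± 0.12 in shPax6.

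The WT response moved with gene length and with the scale. Over all genes its median log2 fold change was 0.84 for the 2021 genes of 1 to 2 kb and -0.61 for the 8063 genes over 4 kb, and the summed FPKM of the WT NMDA libraries was the highest of all. In WT the rises of *H2-D1*, *H2-K1*, *Psmb8*, *Psmb9*, *Psmb10*, *Tap1*, *Tapbp*, *Nlrc5* and *H2-Ke6* passed the test on the deposited scale, on the TPM scale and with the length correction. *Psmb10* lay at 2.55, 1.98 and 1.83, *H2-D1* at 1.39, 0.82 and 1.03, and *Nlrc5* at 1.11, 0.54 and 1.89 on these 3 scales, while the class II median lay at 0.23, -0.33 and -0.23. The WT median over all genes lay at -0.09, -0.66 and -0.01 on the same scales. In shPax6, the class II median was 2.67 on the deposited scale and 2.47 with the length correction, and 6 of 6 were called with either.

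**Figure D4:**
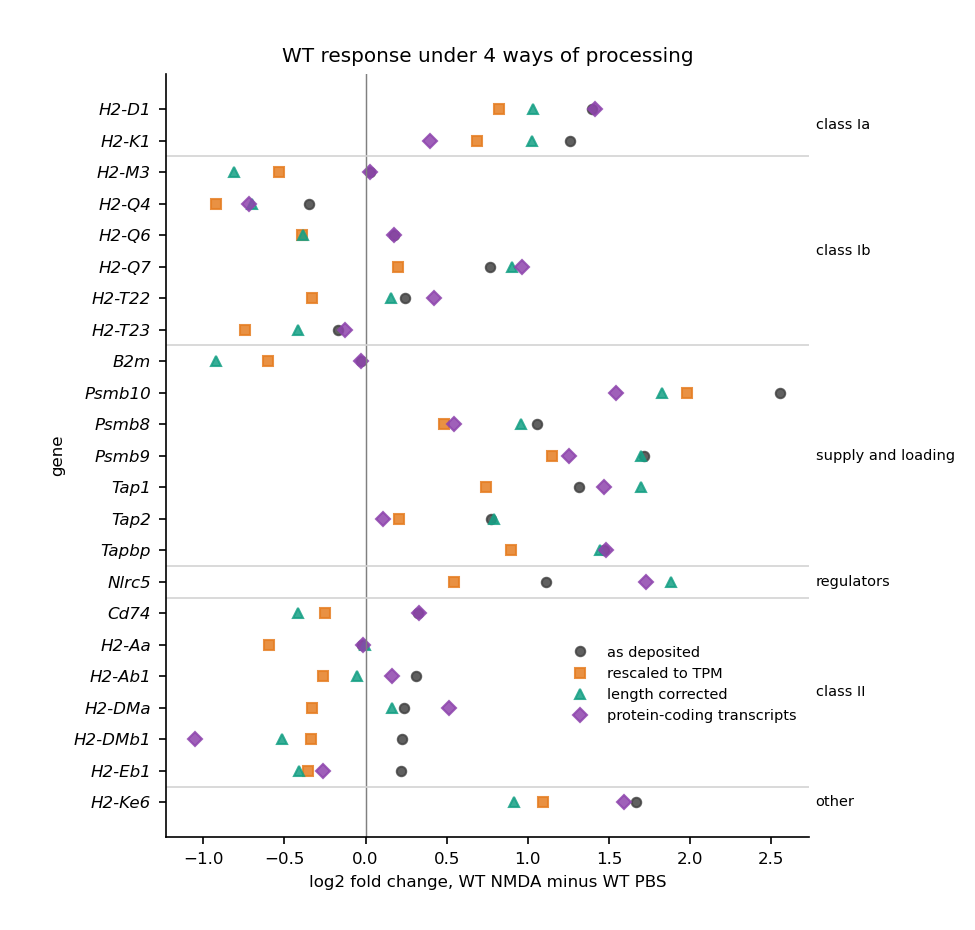
Log2 fold change from WT PBS to WT NMDA for 23 genes, computed from the deposited gene FPKM (grey circles), after rescaling to TPM (orange squares), after a length correction (green triangles) and from protein-coding transcripts alone (purple diamonds). The class Ia genes, the supply genes other than *B2m*, *Nlrc5* and *H2-Ke6* stay to the right of 0 in all 4, whereas *Cd74* runs from 0.33 to -0.42.

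The transcripts behind these gene values differed. In *H2-K1* the coding transcript H2-K1-201 stood at 54.89 and 52.99 FPKM in WT PBS and 68.68 and 58.72 in WT NMDA, whereas the transcript H2-K1-215, annotated as retaining an intron, went from 17.54 and 43.92 to 144.51 and 168.25. The log2 fold change was 0.24 ± 0.08 for H2-K1-201 (limma adjusted p = 0.0607 over all transcripts) and 2.49 ± 0.46 for H2-K1-215 (adjusted p = 0.00379). In shPax6 the coding transcript rose from 62.42 and 65.11 to 176.66 and 194.6 FPKM (1.54 ± 0.08, limma adjusted p = 5.19e-05), so the *H2-K1* gene value rose in both genotypes but its main coding transcript passed the test in shPax6 alone. All coding transcripts of *H2-K1* summed rose by 0.40 in WT (limma adjusted p = 0.000363). The difference between genotypes in this transcript was not tested. In *Psmb10* the coding transcript Psmb10-201 rose from 12.34 and 10.94 to 35.99 and 32.19 FPKM in WT (1.54 ± 0.11, limma adjusted p = 2.67e-05), and another transcript of the gene, which has no annotated coding sequence, stood at 4.56 and 1.7 and then 75 and 77.75 FPKM (4.72 ± 1.67, adjusted p = 0.06). The coding transcripts of *H2-D1* together held 134.78 and 135.71 FPKM in WT PBS and 364.41 and 357.85 in WT NMDA, and those of *Tapbp* 58.64 and 59.85 and then 164.61 and 166.71, nearly the whole gene value. For *H2-Eb1* most of the level was assigned to transcripts not annotated as protein-coding, 73.96 and 68.03 of 79.85 and 72.6 FPKM in shPax6 NMDA. The most abundant of them is annotated as a target of nonsense-mediated decay. In *Tap2* the coding transcript Tap2-201 stood at 1.61 and 1.64 FPKM in WT PBS and 1.74 and 1.77 in WT NMDA (0.10 ± 0.38, limma adjusted p = 0.882), and Tap2-202, annotated as retaining an intron, went from 7.73 and 7.03 to 14.6 and 12.86 (0.89 ± 0.15, adjusted p = 0.00267). The WT rise of the *Tap2* gene value was thus in the transcript without a coding annotation. How reads of near-identical transcripts were divided cannot be checked from FPKM.

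**Figure D5:**
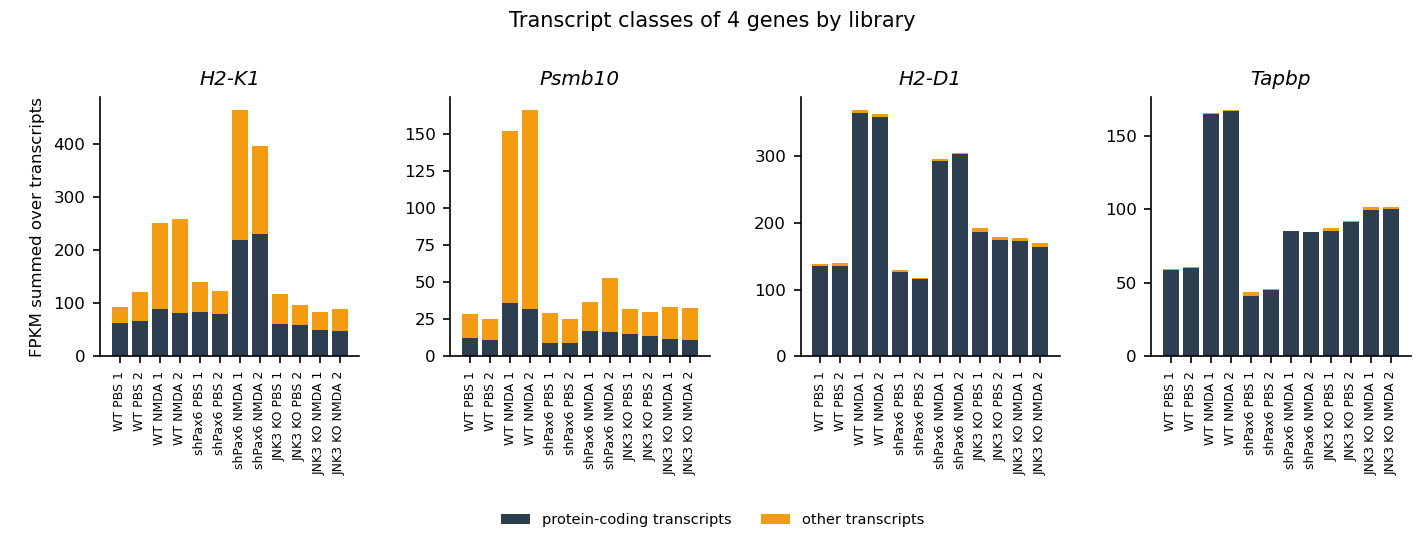
FPKM of *H2-K1*, *Psmb10*, *H2-D1* and *Tapbp* in each library, as stacked bars of protein-coding transcripts (dark) and all other transcripts of the gene (orange). The WT NMDA bars of *Psmb10* are mostly orange, 115.77 and 133.99 FPKM, and those of *H2-D1* and *Tapbp* almost wholly dark.

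In the PBS-injected retinas the differences between genotypes were smaller. Under PBS, 1 of the 29 genes was higher and 7 were lower in shPax6 than in WT, against 5.36% and 11.2% of all genes. The lower genes were *H2-Q10*, *Tap1*, *Tapbp*, *Nlrc5*, *Cd74*, *H2-Aa* and *H2-Ab1*, and the higher gene was *H2-T23*. Thus 3 of the 6 kept class II genes were lower in shPax6 than in WT under PBS, by -0.55 ± 0.11 for *Cd74* (limma adjusted p = 0.0114), -0.39 ± 0.09 for *H2-Aa* and -0.55 ± 0.12 for *H2-Ab1*. *H2-Eb1*, *H2-DMa* and *H2-DMb1* did not pass. With the length correction 3 of the 29 genes were higher and 7 lower. *H2-Q10* was at 0.08 and 0.25 FPKM in shPax6 PBS and 2.18 and 2.23 in WT PBS. The study's call rule gave 1 call, against 6.79% of all genes. Without WT PBS replicate 2 the adjusted count was 3, and without shPax6 PBS replicate 2 it was 5. Between JNK3 KO and WT under PBS 2 genes were higher, *H2-D1* (0.41 ± 0.06) and *Tapbp* (0.58 ± 0.05), and *H2-T23* was lower (-0.73 ± 0.13, limma adjusted p = 0.0367), against 1.1% and 0.407% of all genes. With the study's call rule 0 genes were called, against 1.31% of all genes (11 at an unadjusted p under 0.05 in limma). After quantile normalization 1 gene was higher and 1 lower. The adjusted count was 1 without WT PBS replicate 1, WT PBS replicate 2 or JNK3 KO PBS replicate 1.

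The responses themselves were compared by their difference, a test that shares libraries with the tests of each response. The WT response was lower than the shPax6 response for 16 of the 29 genes and higher for 4, against 31.4% and 18.3% of all genes. Without *H2-Q2* and *H2-T10* it was lower for 14 of 27. On the TPM scale 23 of 29 were lower and 3 higher, and after quantile normalization 10 and 3. The median difference over all genes was -0.28 on the deposited scale and -0.80 on the TPM scale. The largest differences among the class II genes were -3.08 ± 0.13 for *H2-Aa* (limma adjusted p = 8.58e-07), -2.79 ± 0.17 for *H2-Ab1* and -2.55 ± 0.16 for *Cd74* on the log2 scale, and *B2m* differed by -1.45 ± 0.11. The 4 higher in WT were *Psmb10* (1.86 ± 0.22), *H2-Ke6* (1.70 ± 0.22), *H2-K2* (1.01 ± 0.18) and *Tapbp* (0.55 ± 0.07, but 0.02 on the TPM scale and 0.01 after quantile normalization, without a call). *H2-D1*, *H2-K1*, *Psmb8*, *Psmb9*, *Tap1* and *Tap2* did not pass, with 95% intervals of -0.08 to 0.30 for *H2-D1* and -0.89 to 0.01 for *H2-K1*. On the TPM scale the difference passed the test for *H2-D1* (-0.41), *H2-K1* (-0.96), *Psmb8* (-0.70), *Tap1* (-0.85) and *Tap2* (-0.62). These values stand beside the median of -0.80 over all genes on that scale. The WT response was higher than the JNK3 KO response for 21 of 29 genes, with 0 lower by limma (also 0 at an unadjusted p under 0.05), against 23.5% and 27.9% of all genes. The counts were 14 higher and 2 lower on the TPM scale and 17 and 2 with the length correction. The median of this difference over all genes was -0.03 on the deposited scale and -0.62 on the TPM scale. The shPax6 response was higher than the JNK3 KO response for 24 of 29, with 0 lower (also 0 unadjusted), against 12.1% and 5.62%. Without *H2-Q2* and *H2-T10*, kept only through the shPax6 NMDA group, it was higher for 23 of 27. *H2-Aa* differed by 4.17 ± 0.13 between shPax6 and JNK3 KO (limma adjusted p = 3.01e-07) and by 1.09 ± 0.13 between WT and JNK3 KO.

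Other genes of the pathway were counted from lists, whose counts stand beside 26% of all genes called higher and 33.8% lower in WT, 19.1% and 11% in shPax6 and 4.33% and 6.1% in JNK3 KO. The constitutive proteasome subunits that *Psmb8*, *Psmb9* and *Psmb10* replace, *Psmb5*, *Psmb6* and *Psmb7*, all rose in WT, by 1.31 ± 0.07, 1.59 ± 0.08 and 1.35 ± 0.07, so in WT the constitutive subunits rose along with the immunoproteasome subunits, also on the TPM scale, after quantile normalization and with the length correction. In shPax6 only *Psmb7* of the 3 was called, at 0.21 ± 0.07, and none of the 3 on the TPM scale, after quantile normalization or with the length correction. Of the proteasome activator genes *Psme1* and *Psme2* rose in WT (1.12 ± 0.13 and 1.72 ± 0.10) and in shPax6 (0.55 ± 0.13 and 0.79 ± 0.10), and *Psme3* fell in WT. Of the 7 genes of class II peptide processing, 6 rose in shPax6 (median log2 fold change of the list 1.26), 4 rose and 1 fell in WT (0.27), and 1 fell in JNK3 KO (-0.11). On the TPM scale 2 rose and 4 fell in WT, and after quantile normalization 1 and 3. *Ctss*, the cathepsin that trims CD74, stood at 57.07 and 54.33 FPKM in shPax6 PBS and 190.75 and 195.41 in shPax6 NMDA, a rise of 1.79 ± 0.08, against 0.27 ± 0.08 in WT, where it was -0.30 on the TPM scale and -0.59 with the length correction. *Ifi30*, a lysosomal reductase, rose by 2.01 ± 0.14 in shPax6 and 1.16 ± 0.14 in WT and fell by 0.75 on the log2 scale in JNK3 KO. Of the 5 loading partners *Calr* and *Pdia3* rose in all 3 genotypes, although in WT they were -0.17 and -0.22 after quantile normalization, and *Canx* and *Erap1* fell in WT.

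The genes that relay interferon to the MHC genes and those that respond to it were also counted. Of 12 signalling genes 6 rose and 2 fell in WT, 8 rose and 1 fell in shPax6, and 0 were called in JNK3 KO by limma (2 at an unadjusted p under 0.05). On the TPM scale 2 rose and 8 fell in WT, so the WT direction of this list depended on the scale. *Irf1*, an activator of class I and transactivator genes, stood at 13.75 and 13.44 FPKM in WT PBS and 30.39 and 27.44 in WT NMDA, and at 8.56 and 7.82 in shPax6 PBS and 23.36 and 18.67 in shPax6 NMDA, rises of 1.08 ± 0.14 and 1.34 ± 0.14, and it was also called higher in WT on the TPM scale, at 0.51. Of 14 interferon response genes 11 rose and 0 fell in shPax6, whereas 5 rose and 7 fell in WT and 3 fell in JNK3 KO, with medians of 1.21, -0.79 and -0.22. In WT the shares called were thus above the 26% and 33.8% of all genes in both directions. *Gbp2*, a guanylate-binding protein, was at 21.51 and 22.84 FPKM in WT PBS and 8.55 and 7.17 in WT NMDA (-1.49 ± 0.13), but at 16.35 and 14.44 in shPax6 PBS and 37.1 and 33.15 in shPax6 NMDA (1.19 ± 0.13). Of the 7 factors that bind the promoters of class II genes, *Rfx5* fell in WT from 10.14 and 10.63 to 2.46 and 3.91 FPKM (-1.71 ± 0.24, limma adjusted p = 0.00021), with *Nfya*, *Nfyb* and *Creb1*, while *Rfxank* and *Nfyc* rose (*Nfyc* was -0.27 on the TPM scale). With the length correction only *Rfx5* and *Nfyb* fell and *Rfxank* rose in WT. *Rfxank* alone was called in shPax6, where 0 were higher and 1 lower after quantile normalization or the length correction, and *Creb1* alone in JNK3 KO. The co-stimulators gave 0 calls in WT, 1 in shPax6 and 0 in JNK3 KO of 4 kept genes, and the class I-like genes outside the H2 cluster gave 1 lower call in WT and 1 higher call in shPax6, both *Mr1*, and 0 calls in JNK3 KO of 5 kept.

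Markers of leukocytes, the cells that carry most class II molecules, moved along with the groups, and their part in the results was not tested. The 11 microglial markers summed to 62.94 to 70.11 FPKM in WT PBS, 113.57 to 123.02 in WT NMDA, 193.73 to 220.66 in shPax6 PBS, 553.36 to 573.1 in shPax6 NMDA, 77.72 to 79.96 in JNK3 KO PBS and 79.31 to 81.31 in JNK3 KO NMDA. Most of the shPax6 NMDA sum was *C1qa* (171.62 and 164.59 FPKM), *C1qb* (163.34 and 146.27) and *C1qc* (126.85 and 109.15). After NMDA 6 of the 11 rose in shPax6, 5 rose and 3 fell in WT, and 1 rose and 2 fell in JNK3 KO. In shPax6 *Csf1r*, *P2ry12*, *Cx3cr1*, *Tmem119* and *Siglech* were not called, so the markers did not move as one there either. With the length correction the WT count was 2 and 2. The 8 monocyte and macrophage markers summed to 126.21 to 139.65 FPKM in WT PBS, 185.96 to 187.85 in WT NMDA, 42.88 to 44.09 in shPax6 PBS, 304.16 to 310.78 in shPax6 NMDA, 95.08 to 104.09 in JNK3 KO PBS and 71.1 to 71.13 in JNK3 KO NMDA. All 7 that were kept rose in shPax6, 3 rose and 2 fell in WT, and 1 rose and 3 fell in JNK3 KO, with *Cd163* at 0 FPKM in WT NMDA, shPax6 PBS and JNK3 KO PBS. Most of this sum was *Lyz2*, at 251.94 and 250.44 FPKM in shPax6 NMDA, 81.05 and 74.43 in JNK3 KO PBS and 57.95 and 57.62 in JNK3 KO NMDA. *Ly6c2*, a monocyte gene, rose in JNK3 KO, from 1.9 and 2.33 to 4.03 and 4.16 FPKM, so the monocyte and macrophage markers did not move as one there.

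The 7 neutrophil markers followed another order, with 212.53 to 235.66 FPKM in WT PBS, 1948.53 to 1988.06 in WT NMDA, 5.2 to 6.09 in shPax6 PBS, 67 to 74.27 in shPax6 NMDA, 156.3 to 169.82 in JNK3 KO PBS and 13.28 to 14.17 in JNK3 KO NMDA. Their sum was highest in the WT NMDA libraries and was mostly *S100a8*, *S100a9* and *Retnlg*, whereas *Csf3r* had 16.98 and 14.15 FPKM in WT NMDA and 18.16 and 18.9 in WT PBS. *Ly6g* was at 0 FPKM in both shPax6 groups and in JNK3 KO NMDA. The 6 dendritic cell markers summed to at most 5.78 FPKM in any library, the 4 B cell markers to at most 5.64 and the 6 T and NK cell markers to at most 6.07, each of these highest values being in shPax6 NMDA. *Xcr1* was at 0 FPKM in WT PBS, WT NMDA and JNK3 KO PBS, *Clec9a* in WT NMDA, shPax6 PBS and JNK3 KO NMDA, *Cd209a* in both shPax6 groups, and *Ms4a1* in every group except shPax6 NMDA. The 3 pan-leukocyte genes *Ptprc*, *Itgb2* and *Tyrobp* rose in shPax6 and fell in JNK3 KO, and in WT *Tyrobp* rose and *Ptprc* fell. The 5 endothelial markers summed to 49.11 to 51.69 FPKM in WT PBS, 28.33 to 31.67 in WT NMDA, 39 to 39.46 in shPax6 PBS, 55.85 to 61.1 in shPax6 NMDA, 47.7 to 49.98 in JNK3 KO PBS and 71.15 to 71.35 in JNK3 KO NMDA. The sum of the retinal ganglion cell markers was lower after NMDA in every genotype. It was 339.58 to 353.08 FPKM under PBS and 149.61 to 153.32 after NMDA in WT. The sums were 99.63 to 99.74 and 18.09 to 23.92 in shPax6, and 308.77 to 318.14 and 73.67 to 75.24 in JNK3 KO. *Nefl*, *Sncg*, *Slc17a6* and *Pou4f1* were lower in both NMDA libraries of each genotype. *Rbpms* overlapped in shPax6, at 3.75 and 4.59 FPKM under PBS and 5.59 and 2.46 after NMDA. The 5 Müller glia markers gave 1 higher and 4 lower calls in WT, 2 and 1 in shPax6 and 2 and 1 in JNK3 KO.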

How the data were processed

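RNA-seq was done on poly(A) RNA of mouse retinas, 2 libraries for each of 6 groups. Per the submitters' processing notes, reads were aligned to GRCm38.p6 with STAR 2.7.1a and quantified with RSEM 1.3.3, and the authors deposited FPKM per gene and per transcript, not counts. The notes also name edgeR 3.36.0, which needs counts and was not run here. Genes matched to GENCODE M21 for 55227 of 55487 IDs (99.53%), and upstream windows came from RefSeq (GRCm38.p6).

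FPKM were analysed as log2(FPKM + 0.1) for the 16471 genes with over 1 FPKM on average in 1 or more groups. limma 3.58.1 in R 4.3.3 fitted a mean for each of the 6 groups, which left 6 residual degrees of freedom (eBayes with an intensity trend, two-sided), and p-values were adjusted over all genes kept, for the NMDA responses, 2 genotype comparisons under PBS and 3 differences of responses. Transcripts were fitted the same way. On simulated data of 16471 genes, 100 genes were changed by 2 and 100 by 1 on the log2 scale in the WT NMDA group alone. In the WT response 75 and 55 of them were called, with 6 false calls. The simulation held no shift in scale and no length trend. In the real WT response 26% of all genes were called higher and 33.8% lower, so these rates are not those of the reported calls. Figures used Python 3.11.15 and matplotlib 3.10.9.

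The genes, role groups, 24 genes given per library, pathway lists and marker lists were chosen with earlier results of these data known. Genes are given per library if on that list and kept, other kept genes by range or where called. Also tried were pseudocounts of 1 and 0.5, all genes unfiltered, a filter using the 12-library mean, TPM, quantile normalization, a length correction (lowess span 0.3), no trend, a replicate block, the spread of the compared groups alone, the study's call rule (unadjusted p under 0.05 and an absolute log2 fold change above 1), each library left out and, added after seeing the data, protein-coding transcripts alone. The call rule used limma p-values and left out the study's limit on the variance-mean ratio. Depth per gene is unknown from FPKM, so precision was judged from the libraries: the 2 libraries of a group differed from each other by a median of 0.112 to 0.252 on the log2 scale over all genes and by 0.147 to 0.176 over the 29 kept.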

Additional observations from a re-analysis of the deposited data

Results flagged for a closer look

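The NMDA response differed between genotypes for many of the 23 genes given per library, by the limma test of the difference of 2 responses at an adjusted p under 0.05. Each value is a difference of log2 fold changes, and the comparisons share libraries. The counts below stand beside these shares of all genes. For WT minus shPax6 18.3% were called higher and 31.4% lower, and for WT minus JNK3 KO 23.5% and 27.9%. For shPax6 minus JNK3 KO the shares were 12.1% and 5.62%.

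Between WT and shPax6 the response differed for 16 of 23 genes. It was lower in WT for 13 of them, with differences of -0.99 for *H2-T23*, -0.50 for *H2-T22*, -1.19 for *H2-M3*, -1.17 for *H2-Q4*, -1.07 for *H2-Q6*, -1.25 for *H2-Q7*, -1.45 for *B2m*, -0.82 for *Nlrc5*, -2.55 for *Cd74*, -3.08 for *H2-Aa*, -2.79 for *H2-Ab1*, -2.26 for *H2-Eb1* and -1.27 for *H2-DMa*. It was higher in WT for the other 3, with differences of 0.55 for *Tapbp*, 1.86 for *Psmb10* and 1.70 for *H2-Ke6*. The difference of *Nlrc5* was 0.0044 with the length correction and 0.67 from coding transcripts, and that of *Tapbp* was 0.02 on the TPM scale, with no call in any of these.

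Between WT and JNK3 KO the response was higher in WT for 19 of 23 genes, with differences of 1.56 for *H2-K1*, 1.49 for *H2-D1*, 0.85 for *H2-T22*, 0.52 for *H2-Q4*, 0.97 for *H2-Q6*, 1.72 for *H2-Q7*, 0.31 for *B2m*, 1.41 for *Tap1*, 0.82 for *Tap2*, 1.29 for *Tapbp*, 1.49 for *Psmb8*, 1.86 for *Psmb9*, 2.47 for *Psmb10*, 1.16 for *Nlrc5*, 1.32 for *Cd74*, 1.09 for *H2-Aa*, 1.09 for *H2-Ab1*, 1.17 for *H2-Eb1* and 2.03 for *H2-Ke6*. *B2m* and *H2-Q4* were at -0.28 and -0.06 on the TPM scale, beside a median of -0.62 over all genes.

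Between shPax6 and JNK3 KO the response was higher in shPax6 for 21 of 23 genes, with differences of 2.00 for *H2-K1*, 1.38 for *H2-D1*, 1.48 for *H2-T23*, 1.35 for *H2-T22*, 1.45 for *H2-M3*, 1.70 for *H2-Q4*, 2.04 for *H2-Q6*, 2.96 for *H2-Q7*, 1.77 for *B2m*, 1.74 for *Tap1*, 0.91 for *Tap2*, 0.74 for *Tapbp*, 1.67 for *Psmb8*, 1.99 for *Psmb9*, 1.98 for *Nlrc5*, 3.87 for *Cd74*, 4.17 for *H2-Aa*, 3.88 for *H2-Ab1*, 3.42 for *H2-Eb1*, 2.11 for *H2-DMa* and 3.57 for *H2-DMb1*. The class II genes *H2-Aa*, *H2-Ab1*, *Cd74*, *H2-DMb1* and *H2-Eb1* have the 5 largest values among these 23 genes.

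No group has enough libraries for a test of single outlying libraries.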

How the results depend on the processing

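Over 8 comparisons and 13 kinds of alternative, 2826 of 3220 recomputed log2 fold changes of the genes given per library kept their direction and their side of the threshold, 241 lost the call, 57 gained one, 15 changed sign with a call before or after the change and 81 changed sign with no call in either. The number of genes called moved by more than 1.5 times in these cases. With quantile normalization the WT minus shPax6 difference gave 13 calls. Without an intensity trend JNK3 KO against WT under PBS gave 1. With the spread of the compared groups alone the calls were 13 for the response in shPax6, 3 for that in JNK3 KO, 1 for shPax6 against WT and 0 for JNK3 KO against WT under PBS, where limma called 3 genes with all libraries and 10 passed an unadjusted p under 0.05 in the smaller fit, which holds fewer libraries. Under the study's call rule they were 2 for the JNK3 KO response, 1 for shPax6 against WT and 0 for JNK3 KO against WT (limma, 11 at an unadjusted p under 0.05). Leaving out single libraries, the counts ranged from 12 to 15 for the WT response, 21 to 24 for shPax6, 4 to 6 for JNK3 KO, 3 to 9 for shPax6 and 1 to 2 for JNK3 KO against WT under PBS, 16 to 19 for WT minus shPax6, 19 to 20 for WT minus JNK3 KO and 20 to 23 for shPax6 minus JNK3 KO.

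The 15 reversals came with another scale or with coding transcripts alone, and their cause was not tested. The medians over all genes on the TPM scale were -0.66 for the WT response, -0.80 for WT minus shPax6 and -0.62 for WT minus JNK3 KO. On the TPM scale the WT response was -0.25 for *Cd74*, -0.33 for *H2-T22* and -0.26 for *H2-Ab1*, the WT minus shPax6 difference was -0.41 for *H2-D1*, and the WT minus JNK3 KO difference was -0.064 for *H2-Q4* and -0.28 for *B2m*. Quantile normalization gave -0.56 for *H2-D1* and -0.54 for *B2m* in the same differences. The length correction gave a WT response of -0.81 for *H2-M3*, -0.42 for *Cd74* and -0.052 for *H2-Ab1*, a WT minus shPax6 difference of 0.0044 for *Nlrc5* and a WT minus JNK3 KO difference of -0.72 for *B2m*. Protein-coding transcripts alone gave -0.40 for *Psmb10* in shPax6 against WT under PBS and 0.67 for *Nlrc5* in WT minus shPax6.

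Libraries with the same replicate number did not deviate together (r from -0.097 to 0.086 over 15 pairs of groups). With 2 libraries per group this check cannot exclude a pairing, and the main model used none. With a replicate block the counts were 15 for the WT response, 24 for shPax6, 10 for JNK3 KO, 7 and 2 under PBS for shPax6 and JNK3 KO against WT, and 19, 21 and 22 for the differences.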
